A study of Mus musculus with 6 samples.

Results

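Protein-folding genes were followed in liver iNKT1 cells that lacked Ets1 and carried 1 floxed Tbx21 allele. The set was defined by gene symbol. It held the HSP70, HSP110, HSP60 and HSP10 genes and the genes whose symbols begin with Hspb, the J proteins (symbols Dnaja, Dnajb and Dnajc), the subunits of the cytosolic chaperonin TRiC, the protein disulfide isomerases with Pdia symbols, the endoplasmic reticulum (ER) lectins Calr and Canx, and the regulators Ern1, Xbp1, Atf4, Atf6, Ddit3 and Hsf1. Of the 12942 genes in the table, 75 rows matched, 1 pseudogene was left out, and 74 genes remained. The symbol rule does not take in Hsp90aa1, Hsp90ab1, Hsp90b1 and P4hb, which were examined with the other pathway genes. The symbol rule uses no measured value, but it was chosen with earlier results of these data known.

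HSP70 chaperones bind exposed hydrophobic stretches of other proteins in cycles of ATP hydrolysis. J proteins deliver substrates and start the hydrolysis, while nucleotide exchange factors, among them the HSP110 proteins, release ADP and reset the cycle. Chaperonins enclose a protein in a barrel while it folds. In the ER, unfolded protein activates the sensors IRE1 (encoded by Ern1), ATF6 and PERK, which together raise ER chaperones, widen the degradation route called ERAD and slow translation. In the cytosol, heat shock factor 1 raises HSP70, HSP110, HSP90 and their partners. Among lymphocytes, antibody-secreting plasma cells are the best known users of the IRE1 and XBP1 branch, and iNKT cells release cytokines within hours of activation.

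The cells were primary mouse liver cells sorted by CD1d tetramer binding and YFP fluorescence. Invariant natural killer T (iNKT) cells are T cells with a near-fixed receptor for lipid antigens presented by CD1d, and iNKT1 cells are the subset that depends on T-bet, the product of Tbx21. Control libraries came from mice with the genotype Tbx21Cre and Rosa26-YFP+, and cKOHet libraries from mice that had these and were also Ets1F/F and Tbx21F/+. The Cre was driven from Tbx21, so both groups carry it and it acts in cells that express this gene or whose precursors did. There were 3 libraries per group, numbered 1, 2 and 4. The thymic cells and the mice with floxed Ets1 alone that the design text names were not analysed here. Mice are not identified in the labels, and the p-values therefore reflect variation among the libraries only.

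Ets1, the deleted gene, was at 7391, 6255 and 7787 normalised read counts in control replicates 1, 2 and 4 and at 462, 596 and 441 in cKOHet replicates 1, 2 and 4. Tbx21 was at 2434, 2504 and 2765 and at 2174, 2316 and 2127. Every cKOHet library lay below every control for both genes, by far for Ets1 (log2 fold change -3.84, limma adjusted p = 1.06e-10) and slightly for Tbx21 (-0.22, adjusted p = 0.196), which did not pass the test. Column totals were 4996523 to 5219483. Replicate 4 of both groups stood apart by Xist, at 1.17 in the control and 0.0816 in the cKOHet library against 4337 to 5657 in the other 4 libraries. The 8 iNKT identity markers summed to 43380 to 46580 in controls and 35490 to 39970 in cKOHet libraries, but they did not move together. Il2rb (log2 fold change -0.72) and Trbc1 (-0.77) were called lower and Zbtb16 (0.53) higher, while Cxcr6, Cd3d, Cd3e, Klrb1c and Tbx21 were not called. Markers of other cells differed between the groups in some lists and not in others. Over 9 listed hepatocyte markers the sum was 228.4 to 398.4 in controls and 259.1 to 734.5 in cKOHet libraries, which overlapped. Of the 9 only Alb and Apoa1 were tested, and neither was called. Over 9 macrophage and Kupffer cell markers the sum was 35.45 to 95.68 and 141.2 to 184.2. Of 9 B and plasma cell markers only Ighm and Sdc1 were listed, and they went opposite ways. Ighm, at 1036 per kilobase in controls about as high as Tbx21 at 1032, was called lower (log2 fold change -1.06). Sdc1, a plasma cell marker, was at 5.41, 1.146 and 6.43 in controls and 29.2, 55.1 and 18.7 in cKOHet libraries and was called higher (2.78, adjusted p = 0.00362 by limma). All Sdc1 controls were under 10, so it passed the filter only through its cKOHet libraries, and its call is not independent of that filter. Of 4 basophil and mast cell markers only Cpa3 was listed, at 1.69 to 6.45 and at 79.8 to 123. Of 6 endothelial markers only Pecam1 and Stab2 were listed, and they did not move together. Pecam1 was at 172 to 220 in controls and 36.5 to 51.4 in cKOHet libraries and was called lower (log2 fold change -2.16). Stab2 was low, at 0.0379 to 3.67 and 1.01 to 12.4, with overlapping groups and a higher mean in cKOHet libraries, and was not tested. Dendritic cell markers (2 of 5 listed) summed to 97.38 to 134.8 in controls and 183.5 to 193.4 in cKOHet libraries. No neutrophil marker of 7 was listed. Of 5 erythroid markers only Hba-a1 was listed, at 0 to 0.0566 in controls and 7.40 to 33.2 in cKOHet libraries, and it was not tested. The part of these cells in the results below was not tested, and in bulk RNA fewer cells of a type and less RNA per cell cannot be told apart.

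Most of the folding machinery differed little between the groups, and a few members were called in each direction. Of 71 members tested, 12 (16.9%) passed the test, 8 higher and 4 lower in cKOHet libraries. Over all 11226 genes tested the share was 21.4% (11.5% higher and 9.97% lower), so the members' share lay near and slightly under the background. The median log2 fold change was 0.02 for the members and 0.01 for all genes, and the median size regardless of sign was 0.16 for the members and 0.30 for all genes. The groups did not overlap at 22 members (31%), against 35.8% of all genes. Members that rose were Hspa4l, Hspb11, Dnajb4, Dnajc15, Dnaja1, Dnajc1, Atf6 and Ern1, and those that fell were Hspe1, Hspa8, Hspbp1 and Dnajc27. A gene was called at a limma adjusted p under 0.05 over all genes tested, and fold changes were computed from log2(value + 1), so that changes of low genes come out too small. Of the 12 calls, 5 held when any 1 library was left out (Hspa4l, Hspb11, Dnajc15, Dnajc1 and Hspbp1), and 7 members were called without control replicate 2. With no mean-variance trend in the variance estimates 6 of the 12 calls were kept, and Dnajc1, Atf6, Dnaja1, Dnajc27, Hspa8 and Hspe1 lost theirs (adjusted p from 0.0526 to 0.181 by limma).

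**Figure D1:**
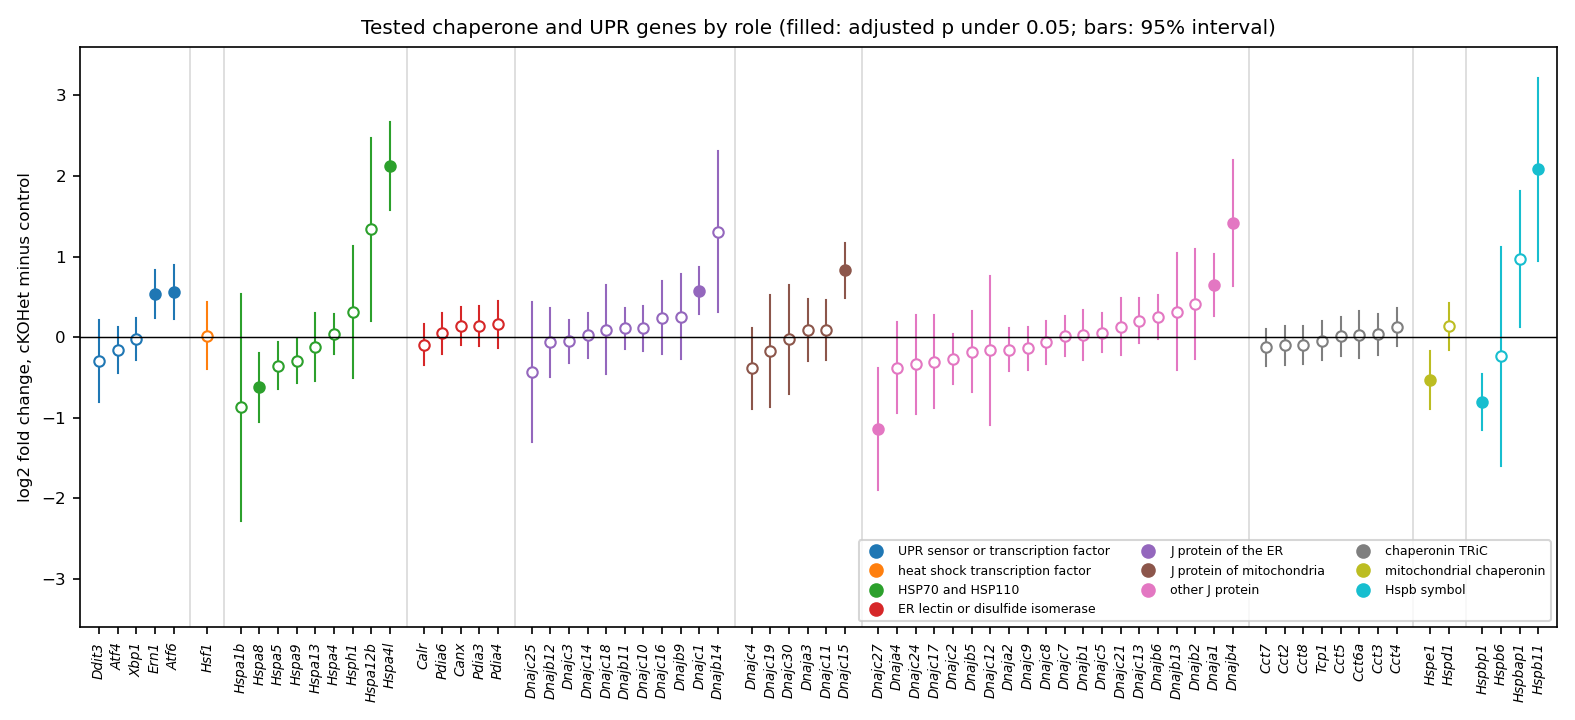
Log2 fold change (cKOHet minus control) of the 71 tested members, ordered within role, with limma's 95% interval as a bar and filled points for an adjusted p under 0.05. The 8 filled points above 0 and 4 below it are spread over the roles, and the 8 tested TRiC subunits lie between -0.12 and 0.12.

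The sensors of the unfolded protein response and the factors downstream of them did not move together. Ern1, which encodes the sensor kinase and RNase IRE1, was at 286, 266 and 314 in controls against 455, 406 and 394 in cKOHet libraries. All 3 cKOHet libraries lay above all controls (log2 fold change 0.54, SE 0.14, limma adjusted p = 0.0126). Of the 2 listed B and plasma cell markers, Sdc1 was higher in the same libraries, at the low values given above, and Ighm was lower at a far higher level. The part of such cells in the Ern1 difference was not tested. The Ern1 call was lost without control replicate 2 or cKOHet replicate 1 (adjusted p = 0.0551 and 0.0529). Atf6, the sensor that is cut in the Golgi to release a transcription factor, was at 402, 273 and 369 and at 475, 497 and 547. The groups again did not overlap (log2 fold change 0.56, SE 0.16, limma adjusted p = 0.0183), although control replicate 2 stood lower than the other controls. The Atf6 call was lost without control replicate 2 or cKOHet replicate 4 (adjusted p = 0.0961 and 0.0667). Without control replicate 2 the log2 fold change was 0.39.

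The transcription factors of the response were not called. Xbp1, whose mRNA IRE1 splices, was at 620.3, 641 and 601 in controls against 583, 589 and 670.2 in cKOHet libraries, with overlapping groups and a 95% interval of -0.28 to 0.24 for the log2 fold change (adjusted p = 0.941 by limma). A sum over the gene does not tell the spliced from the unspliced form. Atf4, the factor translated under the PERK branch, was at 787, 863 and 816 and 832, 789.7 and 613 (-0.15, interval -0.44 to 0.13). Ddit3, which encodes the pro-apoptotic factor CHOP, was at 193, 155 and 106 and 138, 118 and 105 (-0.29, interval -0.80 to 0.21). Both ranges overlapped. The ratio of Ern1 to Xbp1 within a library was 0.461, 0.415 and 0.522 in controls and 0.781, 0.689 and 0.589 in cKOHet libraries. These ratios did not overlap (exact two-sided permutation p = 0.1, the smallest that 3 against 3 libraries allow), and were computed after the values were seen. As Xbp1 differed little, this ratio mostly restates the Ern1 difference. Beyond the ratios reported here, those of Atf6 to Hspa5 and Hspa4l to Hspa4 were computed and did not overlap. That of Hsph1 to Hspa4 did overlap (exact permutation p = 0.8).

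Among ER chaperones the level of Hspa5 was lower in cKOHet libraries without passing the test, and the lectins and isomerases lay close to the controls. Hspa5 encodes BiP, the HSP70 of the ER lumen and the repressor of the sensors. It was at 4566, 4350.1 and 4588 in controls against 3311, 3058 and 4337 in cKOHet libraries, so that the groups did not overlap but cKOHet replicate 4 came close to the controls (log2 fold change -0.35, SE 0.14, limma adjusted p = 0.0833). Without cKOHet replicate 4 the log2 fold change was -0.50 with an adjusted p = 0.00877 by limma. Pdia3, an isomerase that works with the lectins on glycoproteins, was at 5115, 4879.6 and 5155 and 5966, 5136 and 5619, overlapping (0.14, interval -0.11 to 0.39). The ratio of Hspa5 to Pdia3 was 0.893, 0.892 and 0.890 in controls and 0.555, 0.595 and 0.772 in cKOHet libraries, tight in the controls and lower in every cKOHet library (exact permutation p = 0.1, two-sided, ratio chosen after the values were seen).

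Calr, the soluble lectin, was at 5169.5, 4792 and 5578 in controls against 4709.6, 4949 and 4885 in cKOHet libraries. Canx, its membrane-bound relative, was at 2319.8, 2098 and 2399.5 and at 2412, 2452 and 2627. The Calr ranges overlapped (-0.09, interval -0.34 to 0.16), while those of Canx did not, with a small difference (0.14, interval -0.10 to 0.38) that was not called. The isomerases Pdia4 and Pdia6 had log2 fold changes of 0.16 (interval -0.13 to 0.45) and 0.05 (interval -0.21 to 0.30), with cKOHet replicate 4 highest for Pdia4 at 1313 against 929, 912 and 1019 in controls.

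Of these ER genes several carry the classical ER stress element, CCAAT and CCACG with 9 bases between them (searched on both strands), in the 250 bases before the gene start. ATF6 binds this element together with NF-Y. Promoters were taken from RefSeq on GRCm38.p6, where 62 of the 74 members were found (not Atf6, Cct4, Dnajc11, Dnajc12, Dnajc18, Dnajc2, Dnajc30, Dnajc5, Hsf1, Hspa13, Hspa8 and Hspa9). The element was present at 5 members, Hspa5, Calr, Canx, Dnajc3 and Pdia6, and in 0.113% of all 32851 windows of the same length. For this and the later elements a gene was counted if any of its windows held a match. Counts of genes and shares of windows are therefore in unlike units. Hsp90b1, outside the symbol rule, held 2 copies. The lines below show them on the strand of the gene, with the element and its spacer in capitals, because these genes are classical targets of the ATF6 branch. In Calr and in the second Hsp90b1 copy the element lies on the opposite strand and so reads as its reverse complement.
Hspa5: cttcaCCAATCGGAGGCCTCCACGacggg
Calr: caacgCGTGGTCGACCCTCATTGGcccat
Canx: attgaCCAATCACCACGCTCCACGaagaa
Dnajc3: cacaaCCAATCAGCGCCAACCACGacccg
Pdia6: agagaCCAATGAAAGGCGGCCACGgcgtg
Hsp90b1 copy 1: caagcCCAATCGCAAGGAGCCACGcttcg
Hsp90b1 copy 2: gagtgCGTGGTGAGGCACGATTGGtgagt
The stretches lie at chr2:34772020-34772048 (plus strand), chr8:84847070-84847098 (minus strand), chr11:50325795-50325823 (minus strand), chr14:118937822-118937850 (plus strand), chr12:17266486-17266514 (plus strand) and, for Hsp90b1, chr10:86705633-86705661 (minus strand) and chr10:86705528-86705556 (minus strand). In Hspa5 the stretch overlaps an annotated exon of an alternative start of the same gene. None of the 5 members with the element was called, with log2 fold changes from -0.35 (Hspa5) to 0.14 (Canx). Hsp90b1, the ER form of HSP90, was at 4245, 3911 and 4065 and 4360.1, 4277 and 5165 (0.17, interval -0.09 to 0.43).

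Of 11 J proteins placed in the ER, 1 (9.09%) passed the test, against 21.4% of all genes. Dnajc1, an ER membrane J protein whose cytosolic part binds ribosomes, was at 489, 373 and 402 in controls against 595, 665 and 618 in cKOHet libraries. It was higher in all 3 cKOHet libraries (log2 fold change 0.58, SE 0.14, limma adjusted p = 0.00635). Its exons overlap those of Mllt10 on the other strand over 6.43% of their length, with the strand setting of the counting not stated in the sources used here. The window before the Dnajc1 start holds CCGGAAGT, a high-affinity Ets site in its letters, which reads here as its reverse complement on the strand of the gene.
Dnajc1: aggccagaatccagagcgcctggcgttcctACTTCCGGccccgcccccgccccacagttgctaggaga
This stretch lies at chr2:18392843-18392910 (minus strand), with the match in capitals. The letters CCGGAAGT occur in 2.88% of all windows and at 5 of 62 matched members, the others being Cct8, Ddit3, Dnajc14 and Dnajc7, which were not called (log2 fold changes -0.10, -0.29, 0.02 and 0.02). They also occur at 9 of 106 matched other pathway genes, of which Edem3 and P4hb were called higher and the rest were not called. Dnajb9, which recruits BiP to IRE1, was at 108, 73.9 and 132 and 106, 121 and 140.5, overlapping (0.25, interval -0.27 to 0.78). Dnajc3, an ER co-chaperone of BiP, was at 1418, 1481 and 1626 and 1308, 1386 and 1698, also overlapping (-0.05, interval -0.32 to 0.22). The widest values among the other ER J proteins were -0.43 for Dnajc25 and 1.31 for Dnajb14. Dnajb14, an ER membrane J protein at 23.1, 15.9 and 6.45 and 33.2, 30.6 and 41.5, was higher in every cKOHet library and just missed the threshold (adjusted p = 0.0597, limma).

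In the cytosolic HSP70 system the largest rise of the whole set stood beside a fall of the gene with the highest level per kilobase in controls. Of 9 tested HSP70 and HSP110 genes, ER and mitochondrial forms included, 1 rose and 1 fell (22.2% called, against 21.4% of all genes). Hspa4l, an HSP110-family nucleotide exchange factor, was at 85.7, 43.4 and 48.7 in controls against 223, 250.4 and 282 in cKOHet libraries. The lowest cKOHet library was above 2-fold the highest control, a 4.36-fold difference in the fit (log2 fold change 2.13, SE 0.26, limma adjusted p = 2.08e-05). Hspa8, the constitutive cytosolic HSP70 (HSC70), was at 9128, 8294 and 7748 in controls against 4842, 4076 and 8142 in cKOHet libraries. cKOHet replicates 1 and 2 were far below every control, whereas cKOHet replicate 4 lay inside the control range, so the groups overlapped (log2 fold change -0.62, SE 0.20, limma adjusted p = 0.0355). The call of Hspa8 was lost on leaving out any 1 library other than cKOHet replicate 4, with adjusted p from 0.0596 to 0.179. Without cKOHet replicate 4 the fall was larger, with a log2 fold change of -0.91 and an adjusted p = 0.000521 by limma. The call also ended with quantile normalisation (0.0552), robust variance estimates (0.0526) and no mean-variance trend (0.181). Small nucleolar RNA genes lie inside 6.09% of the exonic length of Hspa8.

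Hsph1, another HSP110 gene and a classical target of heat shock factor 1, was at 447, 392 and 274 in controls against 272, 297 and 1128 in cKOHet libraries. Its cKOHet replicate 4 was the highest of all 6 libraries and the other cKOHet libraries lay at the low end of the control range or just under it. With all 6 libraries the log2 fold change was 0.31 (interval -0.51 to 1.13), and without cKOHet replicate 4 it turned to -0.35 (adjusted p = 0.273 by limma). Hspa4, the HSP110-family gene most like Hspa4l, was at 1289, 1140.3 and 1316 and 1260.0, 1197 and 1398, overlapping (0.04, interval -0.21 to 0.29).

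The heat-inducible HSP70 genes were near the bottom of the table. Hspa1b was at 14.7, 35.7 and 14.8 and 31.2, 10.1 and 3.19, overlapping (-0.87, interval -2.27 to 0.54). Hspa1a was under 10 in all 6 libraries (0.0300 to 8.38) and was not tested. Hspa1a and Hspa1b are nearly identical copies, so the split of reads between them is uncertain. The filter of at least 10 in 3 libraries was also missed by Hspa2 (1.75 to 4.27 in controls and 4.58 to 20.1 in cKOHet libraries) and by Cct6b (0 to 8.33 in all 6). Hspa12b, a distant HSP70 relative, was higher in every cKOHet library at low level (3.59, 5.33 and 7.44 and 14.1, 14.0 and 16.6) and was not called (adjusted p = 0.0919, limma). All Hspa12b controls were under 10, so it passed the filter only through its cKOHet libraries. Its lack of overlap, counted among the 22 members above, cannot be told apart from that filter. Hspa13, a microsomal HSP70, was not called either (-0.12, interval -0.54 to 0.30). Hsf1, the heat shock factor itself, was at 297, 258 and 265 and 209.5, 265 and 383, with cKOHet libraries on both sides of the controls (0.02, interval -0.40 to 0.44).

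**Figure D2:**
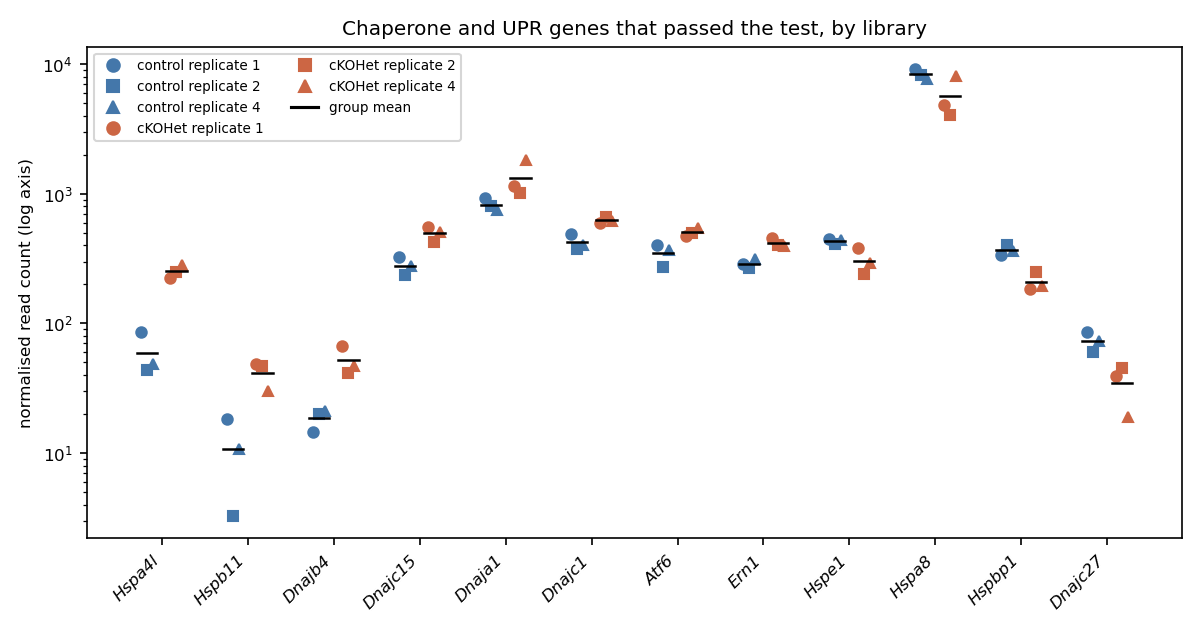
Normalised read counts (log axis) of the 12 members that passed the test, one symbol per library, with control libraries on the left and cKOHet libraries on the right of each gene and a line at each group's mean. The groups separate at 11 genes, while for Hspa8 cKOHet replicate 4 lies among the controls at 8142.

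J proteins outside the ER and mitochondria numbered 20, of which 2 rose and 1 fell (15% called, against 21.4% of all genes). Dnajb4, a cytosolic partner of HSP70, was at 14.6, 20.1 and 21.2 in controls against 67.5, 41.7 and 46.8 in cKOHet libraries. The groups were well apart at a low level (log2 fold change 1.42, SE 0.36, limma adjusted p = 0.0109). The Dnajb4 call was lost without cKOHet replicate 1 (adjusted p = 0.0592). Dnaja1, a major farnesylated HSP40, was at 929, 802 and 746 and at 1144, 1013 and 1833. All cKOHet libraries were higher (log2 fold change 0.64, SE 0.18, limma adjusted p = 0.0178), replicate 4 by much the most. The Dnaja1 call was lost without control replicate 2, control replicate 4 or cKOHet replicate 4 (adjusted p = 0.0538, 0.0738 and 0.0606). Without cKOHet replicate 4 its log2 fold change was 0.39. Exons of Smu1 and other genes overlap 10.8% of Dnaja1. Dnajc27, which encodes a small GTPase fused to a J domain, was at 86.0, 60.1 and 72.9 and at 39.3, 45.4 and 18.8. Every cKOHet library was lower, with replicate 4 lowest (log2 fold change -1.14, SE 0.35, limma adjusted p = 0.0324). The Dnajc27 call was lost without control replicate 1, control replicate 4 or cKOHet replicate 4 (adjusted p = 0.117, 0.0869 and 0.119). Dnajb1, the stress-inducible HSP40, was at 381, 339 and 299 and 352, 350.4 and 333, overlapping (0.03, interval -0.28 to 0.33). The other uncalled J proteins here ran from -0.38 (Dnaja4) to 0.41 (Dnajb2) on the log2 scale, with exons of Wdr61 covering 44.1% of Dnaja4.

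Of 6 J proteins of mitochondria 1 (16.7%) rose, and of the 2 chaperonin genes 1 (50%) fell, while 21.4% of all genes were called. Dnajc15, a J protein of the inner membrane also called MCJ that restrains respiratory complex I, was at 325, 235 and 276 in controls against 555, 424 and 505 in cKOHet libraries. Every cKOHet library was above every control (log2 fold change 0.83, SE 0.16, limma adjusted p = 0.0014). The other mitochondrial J proteins ran from -0.38 (Dnajc4) to 0.09 (Dnajc11). Hspa9, the HSP70 of the matrix, was at 1079, 1073 and 1249 and 884, 829 and 1071. It was lower in every cKOHet library by a narrow margin and was not called (-0.29, adjusted p = 0.126 by limma), but without cKOHet replicate 4 it was (-0.40, adjusted p = 0.0384). With replicate 4 of both groups left out, Hspa9 was not called.

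The pair Hspd1 and Hspe1 encode HSP60 and HSP10, the barrel and the lid of the mitochondrial chaperonin. Hspe1 was at 449.6, 407 and 438 in controls against 379.7, 240.0 and 290.4 in cKOHet libraries, lower in all of them (log2 fold change -0.53, SE 0.17, limma adjusted p = 0.0323). The call of Hspe1 was lost on leaving out any 1 library other than cKOHet replicate 1, with adjusted p from 0.0562 to 0.149. Hspd1 was at 969, 938 and 929 and 1004, 866 and 1283, overlapping (0.13, interval -0.16 to 0.43). The 2 genes start head to head, and the window between them holds 2 overlapping copies of the heat shock element, searched as GAA, TTC and GAA with 2 bases between each or as its reverse complement. It is printed because a single regulatory stretch faces both genes.
Hspd1-Hspe1: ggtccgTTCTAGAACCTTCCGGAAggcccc
The stretch lies at chr1:55088053-55088082 (plus strand), on the strand of Hspe1, overlaps an annotated exon of Hspd1, and has the letters covered by the element in capitals. The element occurs in 0.466% of all windows and at 1 other matched member, Dnajb6 (0.25, not called). The ratio of Hspe1 to Hspd1 was 0.464, 0.434 and 0.471 in controls and 0.378, 0.277 and 0.226 in cKOHet libraries. The lid gene was thus lower relative to the barrel gene in every cKOHet library (exact two-sided permutation p = 0.1, ratio chosen after the values were seen). Their exons overlap each other over 7.6% of Hspe1 and 4.24% of Hspd1.

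TRiC, the chaperonin that folds actin and tubulin, differed little between the groups. None of its 8 tested subunits was called by limma, none had an unadjusted p under 0.05, and their log2 fold changes ran from -0.12 to 0.12. The lowest and highest bounds of their 95% intervals were -0.35 and 0.36, or 0.783-fold and 1.28-fold. Cct2 was at 1701, 1764 and 1771 in controls against 1766, 1489 and 1639 in cKOHet libraries. Cct5 was at 1766, 1620.2 and 1577 and 1816, 1649 and 1537, and Tcp1 at 1242, 1226 and 1091 and 1197, 1085 and 1162. The groups overlapped at all 3. They did not at Cct4, slightly higher in every cKOHet library at 1233, 1174 and 1163 and 1376, 1236 and 1282, and at Cct7, slightly lower at 1440.1, 1374 and 1486 and 1314, 1305 and 1329.

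The remaining 4 members share only the letters Hspb at the start of their symbols, and 1 rose and 1 fell (50% called, against 21.4% of all genes). Hspbp1, a nucleotide exchange factor that also inhibits HSP70, was at 337, 402 and 359 in controls against 185, 250.2 and 195 in cKOHet libraries. It was lower in every cKOHet library (log2 fold change -0.81, SE 0.16, limma adjusted p = 0.00203). Hspb11, whose product is known as the intraflagellar transport protein IFT25, was at 18.4, 3.27 and 10.7 and at 48.3, 46.5 and 30.2. All cKOHet libraries were higher, on low values (log2 fold change 2.08, SE 0.53, limma adjusted p = 0.0106), and without control replicate 2, the lowest library, the log2 fold change was 1.48. Hspbap1 and Hspb6, a small heat shock protein, were low and not called (0.97 and -0.24). For Hspb6 the value turned to 0.31 without cKOHet replicate 4.

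Levels between members can be compared only per length. Per kilobase of merged exons, Calr was at 1664 to 1937 in controls, Pdia3 at 1555 to 1642 and Hspa8 at 1801 to 2122. The ranges of Hspa8 and Calr overlapped, and that of Pdia3 lay just under both. Hspa5 followed at 1029 to 1085 and Cct2 at 665.4 to 692.4. In cKOHet libraries Hspa8 was at 948 to 1893 per kilobase, below Calr (1635 to 1719) and Pdia3 (1636 to 1900) in replicates 1 and 2 and above both in replicate 4.

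cKOHet replicate 4 was far above the other cKOHet libraries at some chaperone genes and below them at others. It was the highest cKOHet library at 36 of 71 tested members (50.7%), against 36.3% of all genes. It exceeded the mean of cKOHet replicates 1 and 2 by more than 0.5 on the log2 scale at 8 members (11.3%), against 8.88% of all genes, a share near the background. These were Hsph1 (an excess of 1.98), Dnajc25 (0.89), Hspa8 (0.87), Dnajb2 (0.84), Dnaja1 (0.77), Hsf1 (0.70), Dnaja4 (0.68) and Dnajc16 (0.56), named after their values were seen. Dnajc25 and Dnajc16 among them are J proteins of the ER. Other heat shock genes of the cytosol did not share the excess, with -2.17 for Hspa1b, -0.18 for Dnajb4 and -0.08 for Dnajb1. In control replicate 4, which shares the low Xist, 6 members (8.45%) passed the same excess over control replicates 1 and 2, against 8.83% of all genes. None of these was among the 8, and the measure was -0.61 for Hsph1, -0.17 for Hspa8 and -0.21 for Dnaja1. Among 44 tested HSP90 and co-chaperone genes outside the symbol rule 11 (25%) passed this excess in cKOHet replicate 4, against 8.88% of all genes. In control replicate 4 it was 3 (6.82%), against 8.83% of all genes, with Hsf2 and Bag3 in both. Hsp90aa1, the inducible cytosolic HSP90, was at 1487, 1391 and 1625 in controls against 1741, 1503 and 2543 in cKOHet libraries, with replicate 4 the highest (0.33, interval -0.02 to 0.67). Hsp90ab1, the constitutive form, had a log2 fold change of -0.04 (interval -0.40 to 0.32). The 9 listed immediate early and dissociation genes summed to 2637 to 2957 in controls and to 2781, 3252 and 3413 in cKOHet replicates 1, 2 and 4. The hepatocyte marker sum was also highest in cKOHet replicate 4, at 734.5. Their part in the excess was not tested. Without cKOHet replicate 4, 10 members were called, 8 of them among the 12, with Hspa5 and Hspa9 added, beside 2002 of all genes.

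**Figure D3:**
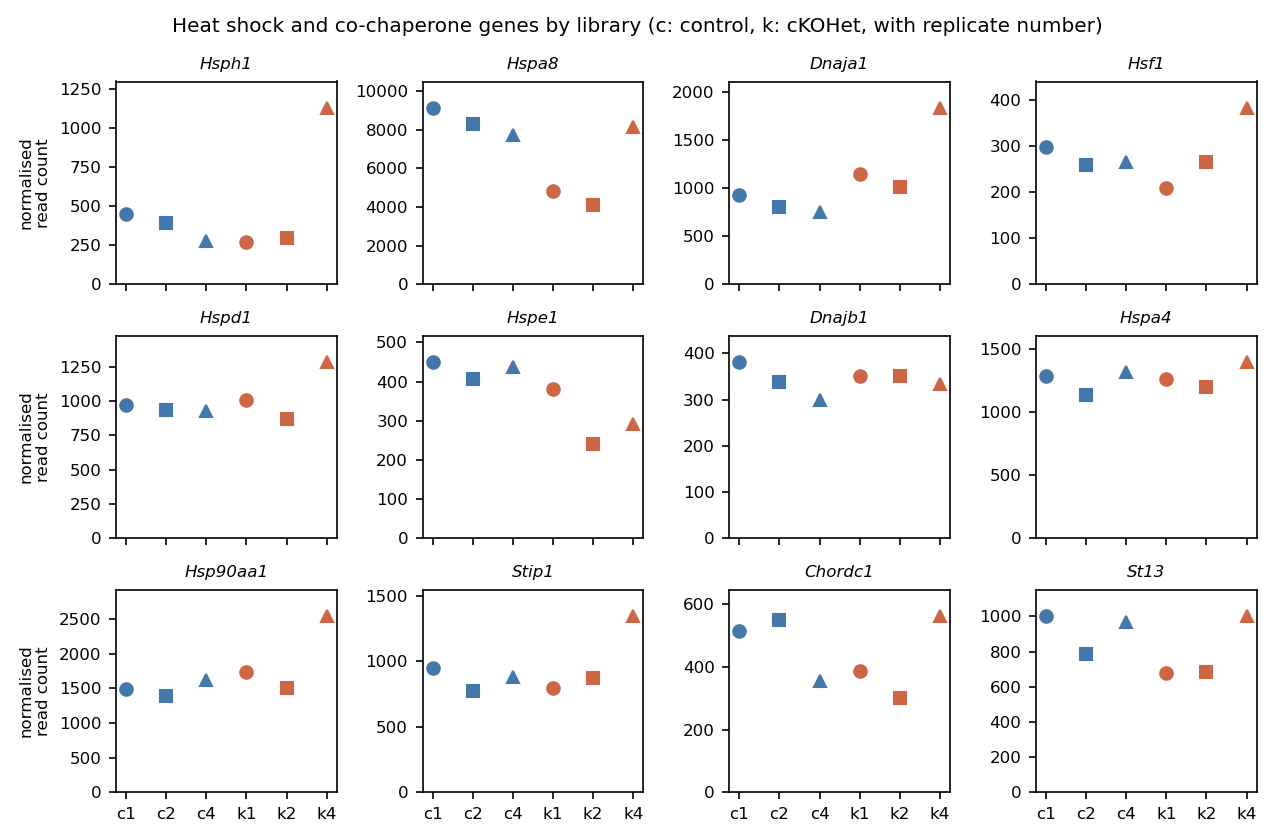
Normalised read counts of 12 heat shock and co-chaperone genes in each library (c, control; k, cKOHet; number, replicate), on linear axes from 0, with genes chosen after their values were seen. cKOHet replicate 4 is the highest of the 6 libraries for Hsph1 (1128), Dnaja1 (1833), Hsf1 (383) and Hsp90aa1 (2543), and not for Hspa8, Hspe1 or Dnajb1.

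The other genes of these pathways were taken from 4 lists, of which 129 genes were tested. Of these 26 (20.2%) were called, 16 higher and 10 lower, with a median of 0.04 on the log2 scale. That share lies near the 21.4% of all genes. The count was 15 to 21 when 1 library was left out, namely 15 without control replicate 1, 17 without control replicate 2, 16 without control replicate 4 and 16 without cKOHet replicate 2.

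Of 49 ER folding and ERAD genes, 6 rose and 2 fell (16.3% called, against 21.4% of all genes, median 0.09). Ero1l, the oxidase that recharges disulfide isomerases, was at 754, 826 and 769 in controls against 2122, 2199 and 2349.9 in cKOHet libraries. Every cKOHet library was above 2-fold every control, and the fitted difference of 2.84-fold (SE 0.11 on the log2 scale, limma adjusted p = 1.47e-07) was the largest rise on this list. Edem1 and Edem3, mannosidase-like proteins that hand misfolded glycoproteins to ERAD, rose by 0.60 and 0.91 on the log2 scale. Vcp, the ATPase that pulls substrates out of the ER membrane, was called higher by 0.38. The call of Vcp was lost on leaving out any 1 library other than control replicate 4 and cKOHet replicate 1, with adjusted p from 0.0563 to 0.117. Hyou1, the ER member of the HSP110 family, was at 1185, 1149 and 1283 and 845, 875 and 902 and fell (log2 fold change -0.46, SE 0.11, limma adjusted p = 0.00744). Herpud1, an ERAD scaffold induced by ER stress, was called lower by a log2 fold change of -0.43. The call of Herpud1 was lost on leaving out any 1 library other than cKOHet replicate 4, with adjusted p from 0.0558 to 0.158. P4hb, the founding disulfide isomerase, was called higher (0.34, adjusted p = 0.0436 by limma), and this ended when any 1 library was left out (adjusted p 0.0505 to 0.187).

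Of 22 genes of the integrated stress response, 2 rose and 4 fell (27.3% called, against 21.4% of all genes, median -0.11). Ddit4, an inhibitor of mTORC1, was at 211, 222 and 282 and 524, 507 and 363 and rose (0.95, adjusted p = 0.0009 by limma). Atf5, a factor translated like ATF4, was low at 16.5, 17.0 and 19.1 and 42.3, 101 and 29.2 and was called higher (1.47). The call of Atf5 was lost on leaving out any 1 library other than cKOHet replicate 1 and cKOHet replicate 4, with adjusted p from 0.0507 to 0.169. Its log2 fold change was lowest, at 0.97, without cKOHet replicate 2. Stc2, a secreted glycoprotein gene, was at 103, 76.8 and 65.4 in controls and was listed at 0.0120, 0 and 0.0680 in cKOHet libraries. The ATF4 targets Phgdh and Mthfd2, of serine and one-carbon metabolism, fell by 0.67 and 0.96 on the log2 scale. Slc7a5, the large neutral amino acid transporter, was called lower (-0.79). The call of Slc7a5 was lost on leaving out any 1 library other than control replicate 1 and cKOHet replicate 1, with adjusted p from 0.0554 to 0.106.

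Of 44 HSP90 and co-chaperone genes, 7 rose and 2 fell (20.5% called, against 21.4% of all genes, median 0.08). Cdc37, which loads kinases onto HSP90, was at 1489, 1609.6 and 1918 in controls against 977, 982 and 987 in cKOHet libraries, even within the cKOHet group and below every control (log2 fold change -0.76, SE 0.12, limma adjusted p = 0.000278). Hsbp1, a binding protein of heat shock factor 1, was called lower (-0.49). The call of Hsbp1 was lost on leaving out any 1 library other than cKOHet replicate 4, with adjusted p from 0.0605 to 0.142. Tbca, a tubulin folding cofactor, and Pdcl3, a TRiC cofactor, rose by 0.85 and 0.61 on the log2 scale. Fkbp5, an HSP90 co-chaperone, rose by 0.54, and Sugt1, an HSP90 adaptor, was called higher by 0.53. The Sugt1 call was lost without control replicate 4 or cKOHet replicate 1 (adjusted p = 0.0623 and 0.0617). Hsf2, which unlike Hsf1 was called higher, had the largest rise on this list (log2 fold change 1.25). Without cKOHet replicate 4 the Hsf2 value was 0.98 and was not called (adjusted p = 0.15 by limma). Of 14 mitochondrial folding and protease genes, 1 rose and 2 fell (21.4% called, the same share as over all genes). Clpx, the unfoldase of the ClpXP protease, rose (0.80, adjusted p = 0.00273 by limma). Afg3l2, an inner membrane protease, and Hscb, a J protein of iron-sulfur cluster assembly, were called lower (-0.42 and -0.83). The call of Afg3l2 was lost on leaving out any 1 library other than cKOHet replicate 4, with adjusted p from 0.0612 to 0.105. The call of Hscb was lost on leaving out any 1 library other than cKOHet replicate 1, with adjusted p from 0.0528 to 0.18.

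**Figure D4:**
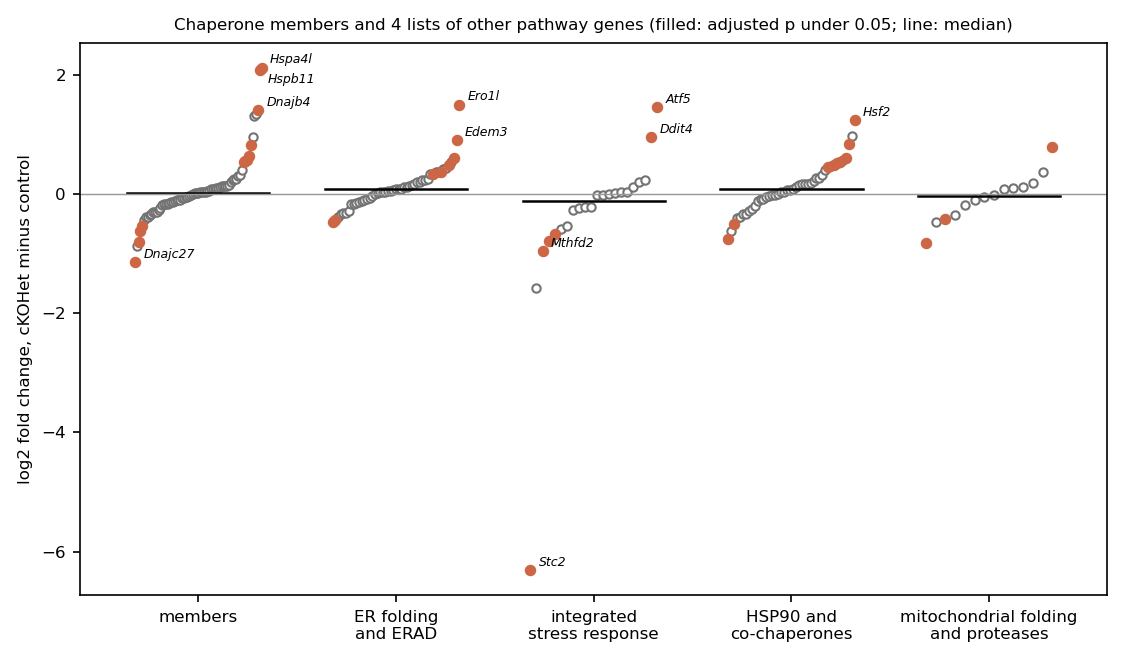
Log2 fold change (cKOHet minus control) of every tested member and of the tested genes of the 4 other lists, sorted within each, with filled points for a limma adjusted p under 0.05 and a line at each median. All 5 medians lie between -0.11 and 0.09, and single genes such as Hspa4l, Ero1l and Stc2 lie far from them, Stc2 being at or near 0 in the cKOHet libraries.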

How the data were processed

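RNeasy mini kits served for RNA and the Nugen Ovation Ultralow system for libraries, per the labels' protocols. Deposited was 1 table with a signal for each Ensembl gene, namely HTSeq read counts that the authors had normalised and that are no longer whole numbers. The submitters' processing notes name Trimmomatic 0.33, STAR, HTSeq 0.6.1, DESeq2 and mm10, while for settings, strand and normalisation method nothing is given in the sources used here, so the original depth is unknown. Both columns for replicate 1 carry a pair of joined codes that the labels leave unexplained.

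GENCODE M21 on GRCm38 named 12870 of 12942 identifiers and 72 had no name there. Values were analysed as log2(value + 1) in genes that reached 10 in 3 or more of the 6 libraries, with limma 3.58.1 in R 4.3.3 (mean-variance trend, Benjamini-Hochberg adjustment over all genes tested). Intervals are limma's 95% intervals. The procedure was tested on simulated data. Promoter letters came from RefSeq windows on GRCm38.p6, of which the 250 bases before the start were used.

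The members, lists and tests were chosen with earlier results of these data known. Named were the regulators, the main chaperones of each compartment and every called member, the 2 TRiC genes with the highest mean, up to 4 called genes per direction and list by smallest adjusted p, and the genes that the symbol rule leaves out. Other names were chosen after their values were seen. Over all tested genes the deviations of same-numbered libraries from their group means were only weakly correlated (0.092, 0.088 and 0.055), so numbers were not treated as pairs. Replicate 4 of both groups did share the low Xist. Alternatives covered the pseudocount, filter, scaling, variance model, replicate block, threshold and each library left out, and, added after the data were seen, a term for low Xist and the high-Xist libraries alone.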

Additional observations from a re-analysis of the deposited data

How the results depend on the processing

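The count of called members was 10 to 13 under other pseudocounts, filters, scalings, robust variance estimates and library weights, 8 with no mean-variance trend (6 of the 12 kept, with Hspa12b and Hspbap1 added, beside 1670 of all genes), 4 at an adjusted p threshold of 0.01 and 16 at 0.1. It was 7 to 10 with 1 library left out. With a term for low Xist it was 12, all of them among the 12 reported. In the high-Xist libraries alone it was 10, with 8 of the 12 kept, beside 1674 of all genes. There Atf6, Dnaja1, Dnajc27 and Hspe1 lost their calls, and Hspa5 and Hsph1 were added. The count over all genes was 1476 at the threshold of 0.01. The other pathway genes gave 10 calls with no trend, 12 at the threshold of 0.01, 16 in the high-Xist libraries alone and 15 to 21 with 1 library left out. A stricter threshold calls fewer genes by construction. For the settings with fewer libraries, some of which also added calls, and for the trend the cause was not tested. With the replicate number as a block 12 members were called, all of them among the 12 reported, beside 2412 of all genes and 25 of the other pathway genes. Because the replicate numbers were not shown to pair the libraries, this block is only an alternative.

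With 1 library left out, directions turned at 20 of 71 tested members and at 41 of 129 other pathway genes. None of these was called with all 6 libraries, all but Hsph1, Hspb6, Chordc1, Sesn2 and Bag3 then lay within 0.2 of 0 on the log2 scale, and the cause was not tested. Hspb6 ran from -0.79 to 0.31 (above 0 without control replicate 4 or cKOHet replicate 4) and Hspa4 from -0.0226 to 0.091. Among the genes examined under every setting 8 turned, and with 1 library left out the log2 fold change ran from -0.0824 to 0.0178 for Xbp1 (above 0 without control replicate 2 or without cKOHet replicate 1 or 2), from -0.2123 to 0.2212 for Hsf1 (under 0 without control replicate 2 or 4 or cKOHet replicate 4) and from -0.3529 to 0.6712 for Hsph1 (under 0 without cKOHet replicate 4). It ran from -0.0318 to 0.1214 for Pdia6 (under 0 without control replicate 2), from -0.1612 to 0.0269 for Dnajc3 (above 0 without control replicate 4 or cKOHet replicate 1), from -0.059 to 0.1154 for Dnajb1 (under 0 without control replicate 4), from -0.0198 to 0.2639 for Hspd1 (under 0 without cKOHet replicate 4) and from -0.2134 to 0.095 for Hsp90ab1 (above 0 without control replicate 4 and without cKOHet replicate 1 or 2). Quantile normalisation gave -0.0135 for Hsf1, -0.0077 for Dnajb1 and 0.0202 for Hsp90ab1, and library weights gave -0.0524 for Hsf1. In the high-Xist libraries alone the values were -0.2332 for Hsf1, -0.5564 for Hsph1 (called), -0.0339 for Dnajb1 and -0.0322 for Hspd1.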
